A study of Mus musculus with 8 samples.

Results

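The genes that make, lengthen and desaturate fatty acids were followed in dorsal skin of mice given butyrate or water, with or without exposure to house dust mite (HDM) allergen. The 10 genes were chosen by symbol from the 22740 genes listed, namely Acly, Acaca, Acacb, Fasn, Elovl5, Elovl6, Elovl7, Scd1, Scd2 and Srebf1, and 10 of 10 were found and passed the filter on low counts, as did 15163 genes in all. Members had between 1176 and 132305 counts per library.

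Fatty acid synthesis starts in the cytosol, where ATP citrate lyase splits citrate into acetyl-CoA, acetyl-CoA carboxylase turns acetyl-CoA into malonyl-CoA, and fatty acid synthase builds palmitate from malonyl-CoA. Elongases of the Elovl family then add carbon units in the endoplasmic reticulum, and stearoyl-CoA desaturases insert the first double bond. In skin these steps supply sebum, the fat of the hypodermis and the free fatty acids and ceramides of the cornified layer.

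Libraries were made from single female BALB/c mice kept on a low-fibre diet, and each of the 4 groups held 2 mice. CTL mice drank water and butyrate mice (SCFA in the labels) drank 400 mM sodium butyrate, beginning 2 weeks ahead of allergen exposure. Lesional skin was dorsal skin that was shaved, patched and given 15 µg HDM extract in each of 4 epicutaneous exposures from an age of 6 to 8 weeks, and baseline skin was not exposed to allergen. Replicates 1 and 2 are baseline CTL, 1 and 3 baseline butyrate, 4 and 5 lesional CTL, and 3 and 4 lesional butyrate. The age recorded for the baseline mice is also 6 to 8 weeks. By the study's methods, baseline and lesional skin came from separate sets of mice. Baseline skin was collected when butyrate treatment ended, and whether this was the same time point as for lesional skin is not stated. Allergen, patch, time and set of mice therefore cannot be told apart. Each library held between 18004136 and 21085544 counts, and p-values measure the spread between these 8 mice.

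One library stood apart from the others. Markers of growing hair follicles (11 genes) summed to 11990 CPM (a gene's counts scaled to the library's total after edgeR's TMM factors) in baseline butyrate replicate 3 and to between 25.4 and 54.7 CPM in the other 7 libraries. Suprabasal keratinocyte markers (7 genes) summed to 3006 CPM there and to between 4891 and 15440 CPM elsewhere, sebaceous gland markers (11 genes) to 1125 CPM against 2017 to 4561 CPM, and skeletal muscle markers (8 genes) to 11500 CPM against 15770 to 53900 CPM. Its cell cycle markers (6 genes) summed to 776 CPM, against 265 to 479 CPM elsewhere. Of 14198 genes, 26.4% differed over 2-fold between both mice of the baseline butyrate group, compared with 1.87% for baseline CTL, 1.39% for lesional CTL and 4.76% for lesional butyrate. Each comparison is therefore given with all 8 libraries and without this one, and its part in the results beyond that was not tested. Without it, baseline butyrate replicate 1 is the only mouse of its group, and it is assumed to vary like the other groups. In bulk skin, fewer cells of a type and less RNA per cell cannot be told apart.

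**Figure D1:**
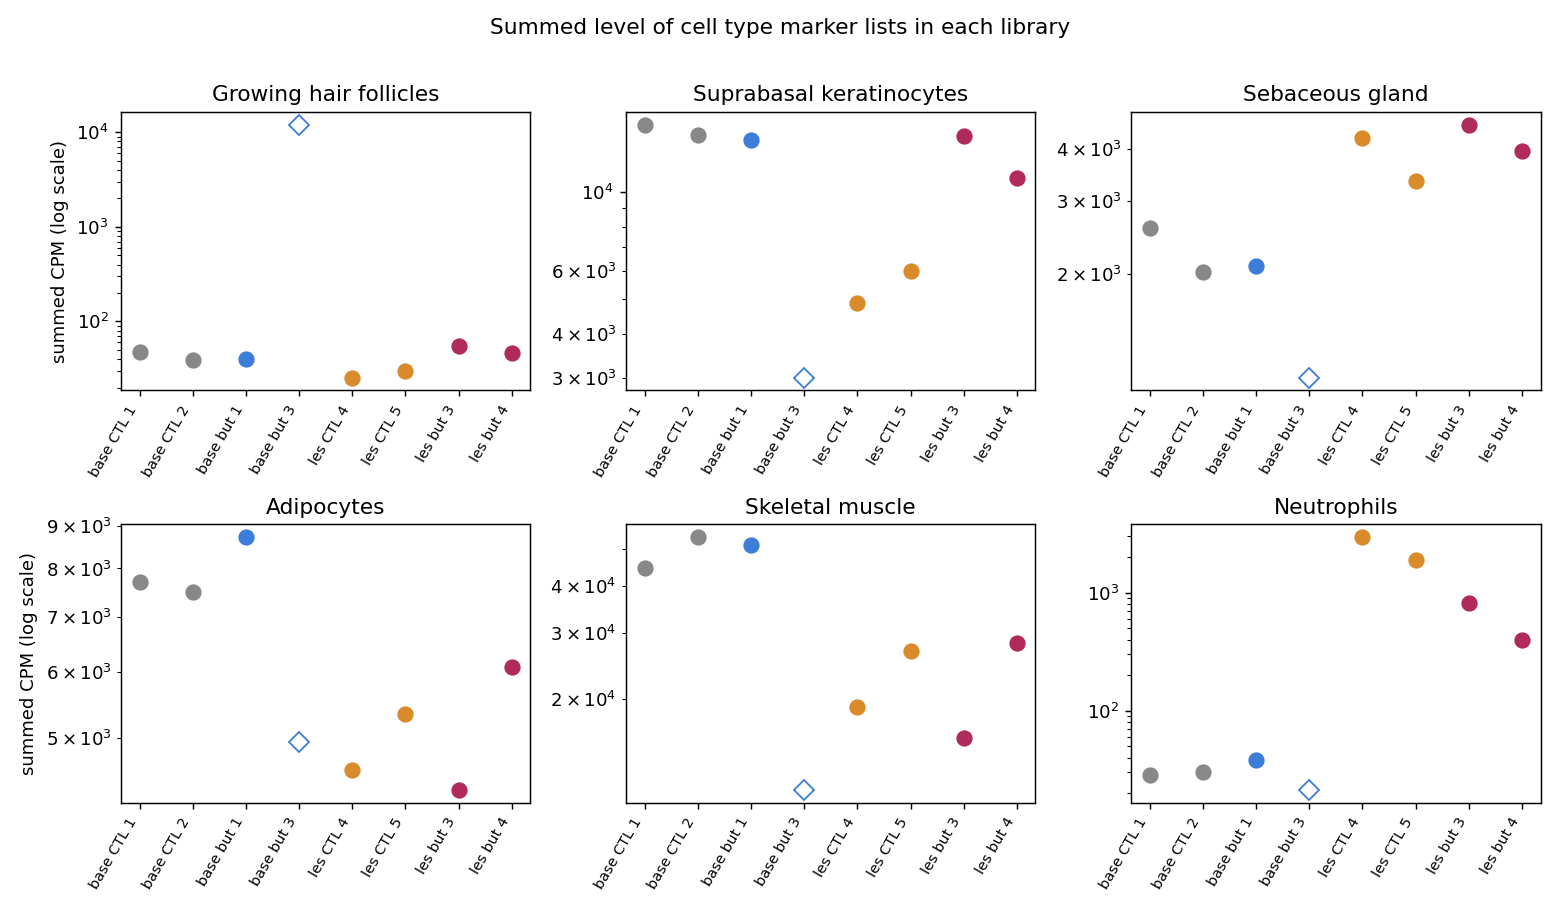
Each point is 1 library, and the y axis gives the summed CPM (log scale) of a list of cell type markers. The open diamond is baseline butyrate replicate 3, whose hair follicle markers summed to 11990 CPM against at most 54.7 CPM in any other library, and neutrophil markers stood between 399 and 2968 CPM in lesional skin and at most at 37.9 CPM in baseline skin.

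Scd1, the main stearoyl-CoA desaturase of mouse skin, was by far the most abundant of the 10 genes per kilobase of exon, at a mean of 1087 RPKM over the 8 libraries. Elovl6, which lengthens palmitate to stearate, followed at 134 RPKM, then Fasn at 84.9 RPKM and Acly at 74.3 RPKM. Between them and the least abundant genes lay Scd2 at 54.7 RPKM, Elovl5 at 40.7 RPKM, Elovl7 at 39.5 RPKM, Srebf1 at 26.4 RPKM and Acacb at 18.5 RPKM. Acaca was lowest at 8.21 RPKM. Over libraries, neighbouring genes in this order overlapped in range at every step except that from Scd1, lowest at 729.5 RPKM, to Elovl6, highest at 219 RPKM. The value of Acaca depends on the length assigned to it, since its exons together span 17074 bases and its longest transcript 9513 bases, and with the longest transcript its level was 14.7 RPKM. Of the windows of 50 bases in Acaca transcripts, 30.4% also occur in transcripts of other genes, most often Gm5182. Reads from these windows may have been split or dropped in the counting. Scd1 and Scd2 shared few such windows with other genes (4.56% and 3.97%).

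**Figure D2:**
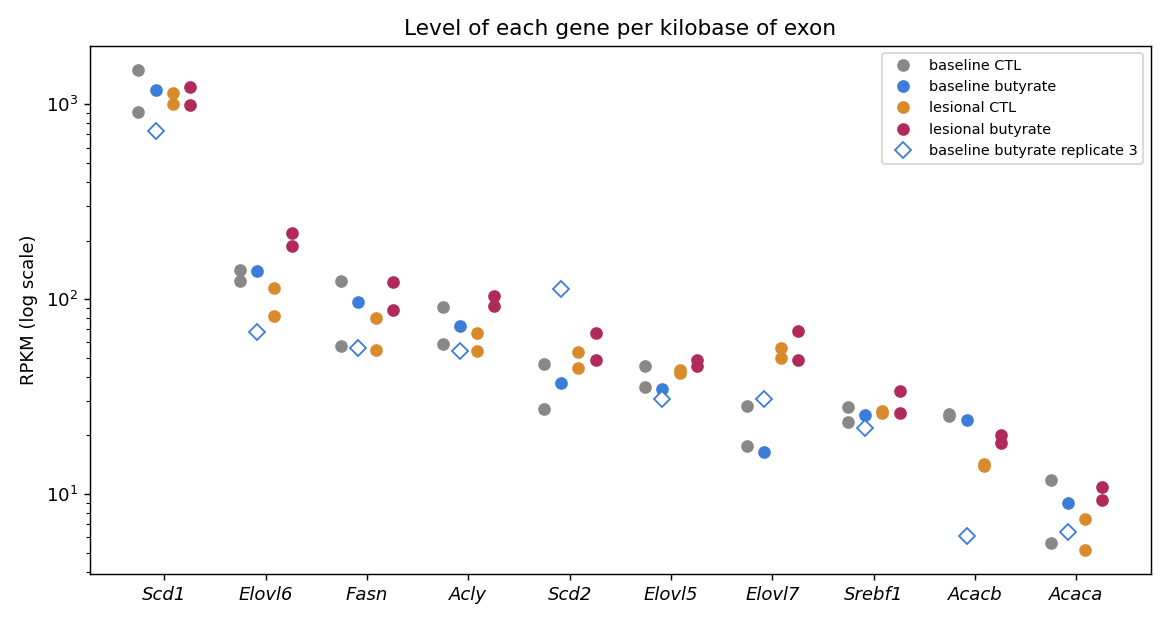
The y axis (log scale) gives RPKM per library for each of the 10 genes, ordered by their mean, and colours mark the 4 groups. Scd1 stood between 729.5 and 1501 RPKM and every other gene at or below 219 RPKM.

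The first steps of synthesis are encoded by Acly (chr11:100476353-100528000, minus strand), Acaca (chr11:84129672-84401651, plus strand), Acacb (chr5:114146535-114250761, plus strand) and Fasn (chr11:120805846-120824547, minus strand), with coordinates on GRCm38. Promoter sequences of Fasn and Acly are shown because the levels of these genes varied together over mice, as described further on. They are the 250 bases before the start site (RefSeq, GRCm38.p6, chr11:120824548-120824797 for Fasn and chr11:100528001-100528250 for Acly, both minus strand), with CCAAT and GGGCGG on either strand in capitals.
Fasn: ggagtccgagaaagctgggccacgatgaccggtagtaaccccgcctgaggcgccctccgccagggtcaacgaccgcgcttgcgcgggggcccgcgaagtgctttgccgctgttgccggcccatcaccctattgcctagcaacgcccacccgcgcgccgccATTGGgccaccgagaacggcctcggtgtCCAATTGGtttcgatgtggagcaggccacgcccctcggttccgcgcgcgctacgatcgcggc
Acly: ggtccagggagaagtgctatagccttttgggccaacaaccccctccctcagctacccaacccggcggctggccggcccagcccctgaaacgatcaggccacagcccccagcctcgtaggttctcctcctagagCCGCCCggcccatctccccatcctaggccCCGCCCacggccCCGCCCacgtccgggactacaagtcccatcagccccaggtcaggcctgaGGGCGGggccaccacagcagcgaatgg
In the run CCAATTGG of Fasn the forward and reverse CCAAT overlap. Upstream of the start, Fasn held 3 matches to CCAAT, the letters bound by NF-Y, at positions -90, -62 and -59, while Acly held 4 matches to GGGCGG, the letters bound by Sp1, at -117, -88, -76 and -27, and 1 more match to CCAAT at 37 after the start. The search covered 300 bases, from 250 before to 50 after the start, in 10 windows that RefSeq gives for 8 of the 10 genes; Scd1 and Scd2 have no entry. Srebf1 has 3 of the 10 windows, and 2 of these and the windows of Acaca and Acacb lie at starts inside the annotated gene. CCAAT was found in 6 of the 10 windows (Acly, Acacb, Fasn, Elovl5 and 2 of Srebf1) and in 37.4% of 32851 promoter windows, and GGGCGG in 4 (Acly, Elovl7 and 2 of Srebf1) and in 35.7%. CACGTG (E-box) was found in 1, that of Elovl5, and in 7.15% of all. TCACNCCAC, a form of the sterol regulatory element, was found in 0 of the 10 and in 1.24% of all, which says only that these letters are not in these windows.

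Acly, which makes cytosolic acetyl-CoA, was measured at 309 and 482 CPM in baseline CTL, 383 and 287 CPM in baseline butyrate, 285 and 352 CPM in lesional CTL, and 487 and 549 CPM in lesional butyrate skin. Both lesional butyrate mice were above the other 6. Baseline CTL replicate 2 came closest, at 482 CPM.

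Acaca, the cytosolic carboxylase that commits acetyl-CoA to synthesis, stood at 95.9 and 202 CPM in baseline CTL, 154 and 109 CPM in baseline butyrate, 88.6 and 128 CPM in lesional CTL, and 159 and 185 CPM in lesional butyrate skin. Fasn, the synthase itself, stood at 630.5 and 1360 CPM, 1054 and 617 CPM, 597 and 878 CPM, and 959 and 1338 CPM in the same order. Both genes had their highest value in baseline CTL replicate 2. They lay more than 2-fold apart between the 2 baseline CTL mice (2.11-fold for Acaca and 2.16-fold for Fasn). The baseline CTL range covered the other libraries except lesional CTL replicate 4 and, for Fasn, also baseline butyrate replicate 3. In lesional skin the groups did not overlap for either gene.

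Acacb, the mitochondrial carboxylase whose malonyl-CoA restrains fatty acid oxidation, had another pattern. It stood at 247 and 243 CPM in baseline CTL, 231 and 59.0 CPM in baseline butyrate, 137 and 135 CPM in lesional CTL, and 176 and 195 CPM in lesional butyrate skin. Apart from baseline butyrate replicate 3, the mice of each group lay within 1.11-fold of each other, with baseline skin highest, lesional butyrate skin in the middle and lesional CTL skin lowest, and without overlap. The low value of 59.0 CPM came from the library with hair follicle markers at 11990 CPM and skeletal muscle markers at 11500 CPM.

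**Figure D3:**
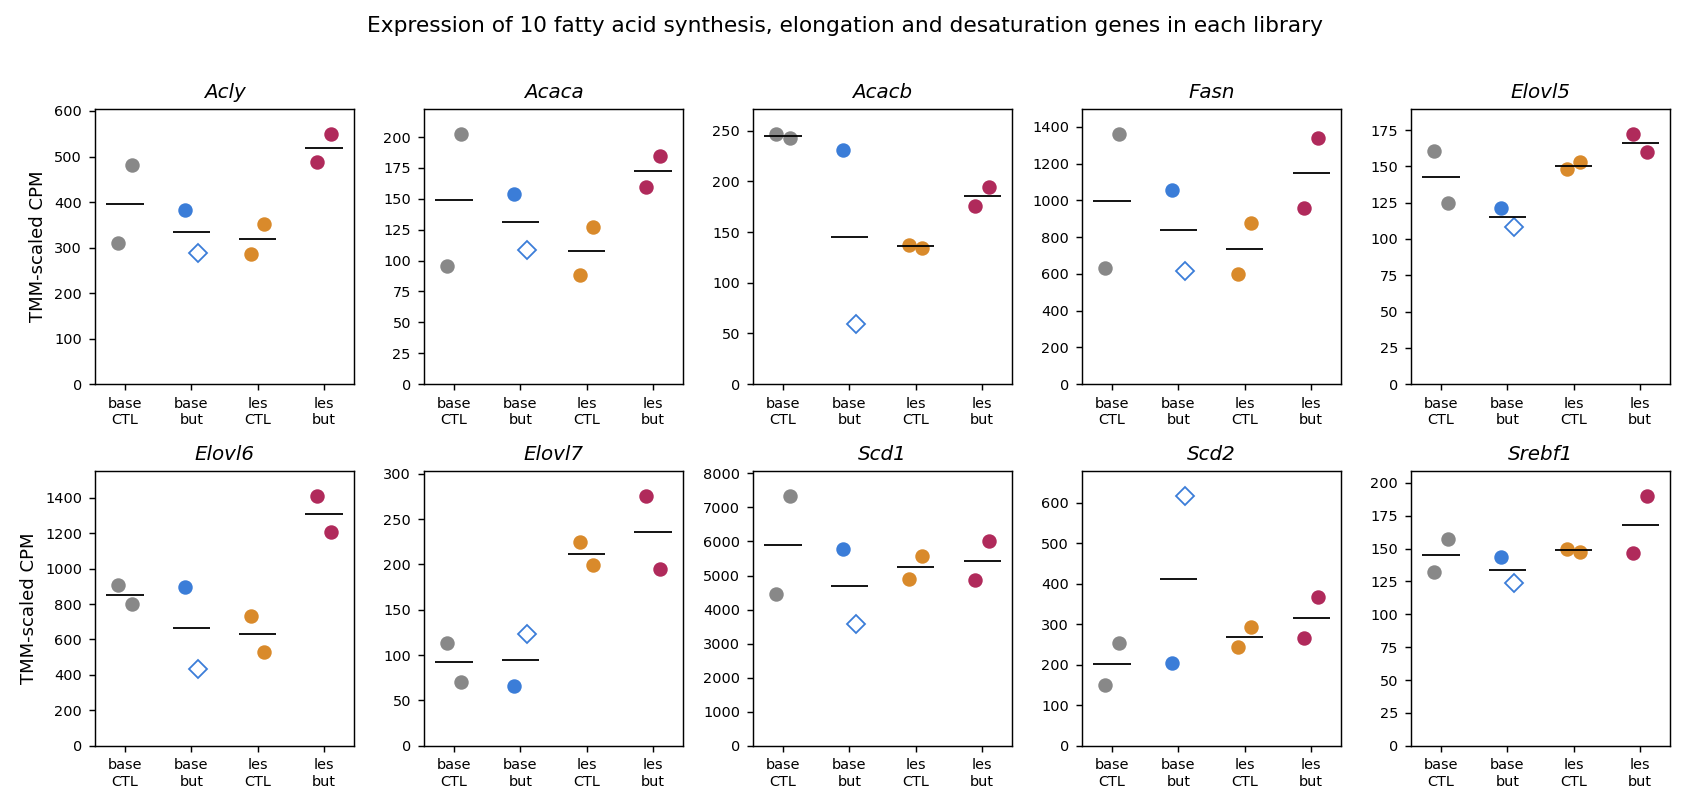
Each panel shows 1 gene, each point 1 library and each bar the mean of 2 mice, with TMM-scaled CPM on a y axis that starts at 0. The open diamond is baseline butyrate replicate 3, which was lowest of all libraries for Acacb at 59.0 CPM and highest for Scd2 at 617 CPM.

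The 3 elongases each had a pattern of their own. Elovl6 (chr3:129532355-129638495, plus strand) and Elovl7 (chr13:108214404-108285683, plus strand) were the members that passed the test once baseline butyrate replicate 3 was left out, and so the 250 bases before their starts are shown (RefSeq, GRCm38.p6, chr3:129532136-129532385 and chr13:108214154-108214403, plus strand), with matches to the same letters in capitals.
Elovl6: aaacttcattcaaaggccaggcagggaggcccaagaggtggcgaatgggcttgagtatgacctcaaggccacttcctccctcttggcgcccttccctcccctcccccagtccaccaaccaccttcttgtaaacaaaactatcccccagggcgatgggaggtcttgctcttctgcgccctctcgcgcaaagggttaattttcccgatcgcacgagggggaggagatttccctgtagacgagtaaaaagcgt
Elovl7: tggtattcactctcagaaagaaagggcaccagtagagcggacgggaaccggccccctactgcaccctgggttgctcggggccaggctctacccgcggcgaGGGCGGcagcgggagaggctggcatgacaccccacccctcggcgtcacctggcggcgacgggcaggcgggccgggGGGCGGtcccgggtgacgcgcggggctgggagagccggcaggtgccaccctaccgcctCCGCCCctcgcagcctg
Elovl6 held none of the 4 motifs searched, and Elovl7 held 3 matches to GGGCGG, at -150, -75 and -17. The GC content of the 300-base windows was 55.7% for Elovl6 and 74% for Elovl7.

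Elovl6 stood at 906 and 801 CPM in baseline CTL, 894 and 435 CPM in baseline butyrate, 733 and 528.5 CPM in lesional CTL, and 1411 and 1204 CPM in lesional butyrate skin. Both lesional butyrate mice were above all others, and both lesional CTL mice were below both baseline CTL mice.

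Elovl7 was measured at 113 and 70.7 CPM in baseline CTL and 66.3 and 124 CPM in baseline butyrate skin. In lesional skin it was measured at 224 and 199 CPM in CTL and 276 and 195 CPM in butyrate mice. All 4 lesional mice were above all 4 baseline mice, whichever treatment they had. Elovl5 (chr9:77917364-77984519, plus strand), which acts on polyunsaturated fatty acids, was the steadiest elongase, at 161 and 125 CPM, 122 and 108 CPM, 148 and 153 CPM, and 172 and 160 CPM in the same order. Its 2 baseline butyrate mice were the lowest of the 8.

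Scd1 (chr19:44394455-44407879, minus strand) and Scd2 (chr19:44293674-44306864, plus strand) are neighbours on chromosome 19 that both place a double bond in stearate and palmitate. Scd1 stood at 4456 and 7343 CPM in baseline CTL, 5788 and 3569 CPM in baseline butyrate, 4907 and 5580 CPM in lesional CTL, and 4859 and 6023 CPM in lesional butyrate skin, and the ranges of all groups overlapped. Scd2 stood at 149.8 and 253 CPM, 204 and 617 CPM, 243 and 293.5 CPM, and 266 and 367 CPM. The value of 617 CPM in baseline butyrate replicate 3 was the highest and the other 7 libraries lay between 149.8 and 367 CPM.

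Srebf1 (chr11:60199089-60222581, minus strand) encodes SREBP-1, the factor that switches on most of these enzymes. It was the least variable of the 10, at 132 and 158 CPM in baseline CTL, 144 and 124 CPM in baseline butyrate, 149.5 and 148 CPM in lesional CTL, and 146 and 190.1 CPM in lesional butyrate skin. Lesional butyrate replicate 4 was the highest, and replicate 3 of that group lay just below both lesional CTL mice. SREBP-1 is activated by cleavage of its protein, which was not measured here.

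The study asked what butyrate does to lesional skin. In lesional skin all 10 genes had a positive log2 fold change of butyrate against CTL, with a median of 0.34 (all 15163 genes, -0.0053). For 6 of them both butyrate mice were above both CTL mice, namely Acly, Acaca, Acacb, Fasn, Elovl5 and Elovl6, where 22.4% of all genes showed this. With 8 libraries, 0 of 10 members passed edgeR's quasi-likelihood test at an FDR below 0.1 and a fold-change above 2, as did 0% of all genes, and 2 members (Acly and Elovl6) had an unadjusted p below 0.05, as did 4.84% of all genes. limma-voom and DESeq2 also called 0 members (0.0066% and 0.818% of all genes).

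Elovl6 differed most, at 1308 ± 146 CPM with butyrate against 630.5 ± 144 CPM in CTL skin (SD, n = 2 each), a 2.07-fold difference (log2 fold change 1.05, SE 0.37, edgeR FDR = 0.947). When baseline butyrate replicate 3 was left out, its fold was 2.08 and it passed (edgeR FDR = 0.0933), as 1 of 10 members and 1.22% of all genes. Leaving out baseline butyrate replicate 1 instead gave the same call (edgeR FDR = 0.0923, and 1.22% of all genes). Neither of these mice is in the comparison, and both enter it through the spread that all groups share. When only the lesional libraries were fitted, Elovl6 did not pass.

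Acly came next, at 518 ± 43.7 CPM against 319 ± 47.7 CPM, a 1.63-fold difference (log2 fold change 0.70, SE 0.27, edgeR FDR = 0.989). The folds were 1.59 for Acaca, 1.56 for Fasn and 1.36 for Acacb, and the 95% confidence intervals of their log2 fold changes (-0.26 to 1.61, -0.49 to 1.77 and -0.89 to 1.78) covered 0. With baseline butyrate replicate 3 left out, the interval of Acacb narrowed to 0.21 to 0.68 (edgeR FDR = 0.115). For Scd1 the log2 fold change was 0.05 with an interval of -0.89 to 0.99, and for Srebf1 0.18 with -0.25 to 0.61. Cell type markers differed as well. Suprabasal keratinocyte markers summed to 14410 and 10940 CPM with butyrate and to 4891 and 6004 CPM in CTL skin, sebaceous gland markers to 4561 and 3944 CPM against 4230 and 3341 CPM, and adipocyte markers (14 genes) to 4326 and 6086 CPM against 4567 and 5345 CPM. The log2 fold change was positive in 7 of 7 suprabasal, 10 of 11 sebaceous, 9 of 14 adipocyte, 3 of 6 basal keratinocyte, 4 of 6 fibroblast, 6 of 10 hair follicle and 2 of 8 skeletal muscle markers, and in 0 of 9 neutrophil, 0 of 4 endothelial and 0 of 6 cell cycle markers. Among them 0 passed with 8 libraries. With 7 libraries the suprabasal Krt1, Krt10 and Lor, the sebaceous Awat2 and the basal Krt15 passed as higher and 5 neutrophil markers as lower. Whether these cell types account for the values of the 10 genes was not tested.

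**Figure D4:**
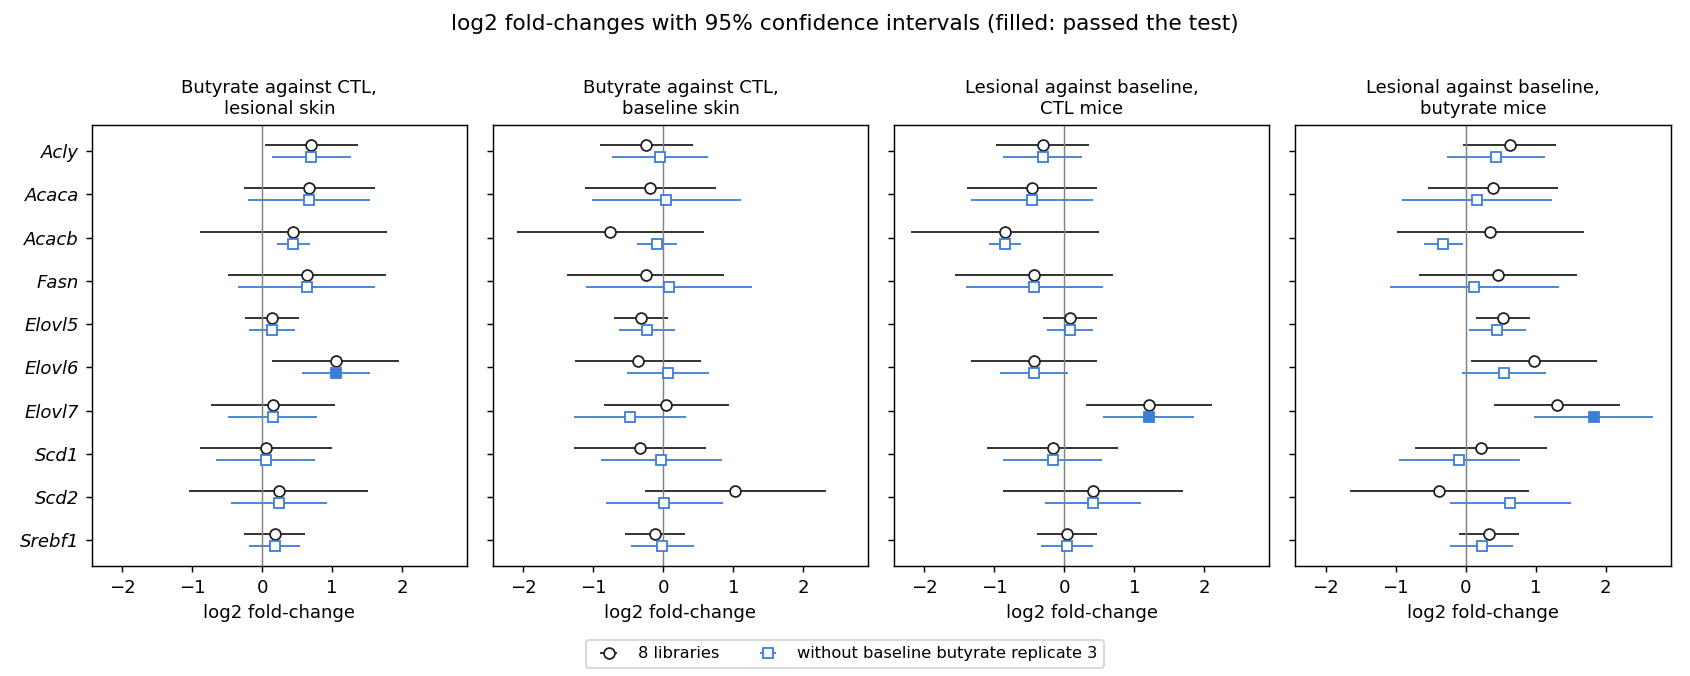
Points are log2 fold changes and lines their 95% confidence intervals from edgeR, with all 8 libraries (black circles) and without baseline butyrate replicate 3 (blue squares), and filled symbols passed the test. Elovl6 with butyrate in lesional skin (1.05) and Elovl7 in lesional against baseline skin (1.20 and 1.83) are the 3 filled symbols.

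In baseline skin 8 of the 10 genes had a negative log2 fold change of butyrate against CTL, with a median of -0.25 (all genes, 0.0012). Leaving out baseline butyrate replicate 3, 6 were negative and 4 positive, with a median of -0.02 (all genes, -0.0087), and no member had an unadjusted p below 0.05. The members' median was 0.041 when baseline CTL replicate 2 was left out instead. Acacb and Elovl5 were lower in both butyrate mice than in both CTL mice, as were 15.9% of all genes, and by edgeR 0 of 10 members passed, as did 0% of all genes (0 members and 3.49% of all genes at an unadjusted p below 0.05). limma-voom called 0 members (0% of all genes) and DESeq2 0 (0.383%), and edgeR without baseline butyrate replicate 3 called 0 (0%). The log2 fold change of Acacb was -0.76 with 8 libraries and -0.08 without baseline butyrate replicate 3, and that of Scd2 was 1.03 and 0.02. With baseline butyrate replicate 1 left out, so that replicate 3 alone stood for the group, Acacb (log2 fold change -2.06, edgeR FDR = 0.000269) and Scd2 (1.61, edgeR FDR = 0.0129) passed, along with 24.1% of all genes.

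The comparison of lesional with baseline skin sets skin patched with allergen against unexposed skin of other mice. In CTL mice 4 of 10 genes had a positive and 6 a negative log2 fold change, with a median of -0.24 (all genes, -0.015), and the median was 0.17 when baseline CTL replicate 2, with its high Acaca and Fasn, was left out. Elovl7 was higher in both lesional mice, as were 36.7% of all genes, and Acacb and Elovl6 were lower in both, as were 38.5%. By edgeR 0 of 10 members passed, against 3.58% of all genes, and 1 had an unadjusted p below 0.05, as did 19.7% of all genes. limma-voom called 0 members (3.81% of all genes) and DESeq2 called 1, Elovl7 (7.21%).

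Elovl7 was 2.30-fold higher in lesional CTL skin, at 212 ± 17.6 CPM against 92.0 ± 30.2 CPM (SD, n = 2 each; log2 fold change 1.20, SE 0.37, edgeR FDR = 0.165). It passed without baseline butyrate replicate 3 (edgeR FDR = 0.0233), when 12.5% of all genes did, and without baseline butyrate replicate 1 (edgeR FDR = 0.0233, with 12.3% of all genes). Acacb was 1.80-fold lower (log2 fold change -0.85, edgeR FDR = 0.419). After leaving out baseline butyrate replicate 3 its fold was again 1.80 and its FDR was 0.00379 by edgeR, short of the fold-change threshold of 2. Elovl6 was 1.35-fold lower, with a log2 fold change of -0.44 and a 95% confidence interval of -1.33 to 0.46. Sebaceous gland markers summed to 4230 and 3341 CPM in lesional and 2583 and 2017 CPM in baseline CTL skin, adipocyte markers to 4567 and 5345 CPM against 7699 and 7492 CPM, suprabasal keratinocyte markers to 4891 and 6004 CPM against 15440 and 14460 CPM, skeletal muscle markers to 19110 and 26910 CPM against 44580 and 53900 CPM, and neutrophil markers (9 genes) to 2968 and 1906 CPM against 28.4 and 30.2 CPM. With 8 libraries 9 of 9 neutrophil markers and the sebaceous Krt79 passed as higher. The log2 fold change was negative in 8 of 8 skeletal muscle, 6 of 7 suprabasal, 12 of 14 adipocyte and 8 of 10 hair follicle markers. It was negative in 3 of 6 basal keratinocyte, 2 of 6 fibroblast, 0 of 4 endothelial and 0 of 6 cell cycle markers. In these lists 0 markers passed. Of the 11 sebaceous gland markers 5 had a positive and 6 a negative log2 fold change with 8 libraries (median -0.014). Krt79 alone stood at 2405 and 1840 CPM in lesional and 797 and 644 CPM in baseline CTL skin. The part of these cell types in the values of Elovl7, Acacb and Elovl6 was not tested.

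In butyrate mice 9 of 10 genes had a positive log2 fold change of lesional against baseline skin, with a median of 0.43 (all genes, -0.045). Acly, Acaca, Elovl5, Elovl6, Elovl7 and Srebf1 were higher in both lesional mice, 6 of 10 members, where 15.7% of all genes were. By edgeR 0 members passed, against 0.35% of all genes, and 3 (Elovl5, Elovl6 and Elovl7) had an unadjusted p below 0.05, as did 13.1% of all genes. limma-voom called 0 (0.277% of all genes) and DESeq2 called 1, Elovl7 (4.6%). Elovl7 stood at 235 ± 57.2 CPM against 94.9 ± 40.4 CPM, a 2.48-fold difference (log2 fold change 1.31, SE 0.37, edgeR FDR = 0.275). It was 3.55-fold without baseline butyrate replicate 3 (log2 fold change 1.83, edgeR FDR = 0.0547), the 1 member that passed, with 5.94% of all genes. Elovl6 had a log2 fold change of 0.98 with 8 libraries and 0.55 without that mouse, Elovl5 of 0.53 and 0.45, and Acacb of 0.35 and -0.32. Without baseline butyrate replicate 1, Elovl6 (1.59, edgeR FDR = 0.00701) and Acacb (1.66, edgeR FDR = 0.000511) passed, with 19.1% of all genes. Among the markers, sebaceous gland genes summed to 4561 and 3944 CPM in lesional and 2087 and 1125 CPM in baseline butyrate skin and neutrophil genes to 822 and 399 CPM against 37.9 and 21.3 CPM. Skeletal muscle genes summed to 15770 and 28230 CPM against 51310 and 11500 CPM. Adipocyte genes summed to 4326 and 6086 CPM against 8731 and 4940 CPM, and suprabasal keratinocyte genes to 14410 and 10940 CPM against 14020 and 3006 CPM. With 7 libraries 8 of 8 muscle and 13 of 14 adipocyte markers had a negative log2 fold change. It was positive in 9 of 11 sebaceous, 9 of 9 neutrophil and 4 of 7 suprabasal markers. The part of these cell types in the members' values was not tested.

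Whether butyrate acted differently in the 2 skin states was tested as an interaction (lesional minus baseline log2 fold change). By edgeR 0 of 10 members passed, as did 0% of all genes, while Acly and Elovl6 had an unadjusted p below 0.05, as did 4.64% of all genes. limma-voom called 0 (0% of all genes) and DESeq2 0 (0.244%). The interaction of Elovl6 was 1.41 on the log2 scale (95% confidence interval 0.14 to 2.69, edgeR FDR = 0.84) and 0.99 (0.21 to 1.76, edgeR FDR = 0.513) without baseline butyrate replicate 3, when 0 members passed (0% of all genes). That of Acly was 0.94 (0.0054 to 1.88, edgeR FDR = 0.84) and 0.75 (-0.15 to 1.65, edgeR FDR = 0.631). Without baseline butyrate replicate 1, Acly, Acacb, Elovl6 and Scd2 passed, with 20.9% of all genes.

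Ratios between 2 genes within 1 library do not depend on its scaling, and a change of the ratio between libraries does not depend on gene length. Fasn to Acaca was nearly constant, with a log2 ratio of counts between 2.51 and 2.86 in all 8 libraries, although both genes varied more than 2-fold between mice of the same group. Scd1 to Scd2 fell into separate ranges by skin state, with log2 ratios of 4.89 and 4.86 in baseline CTL skin and 4.83 in baseline butyrate replicate 1, against 4.34 and 4.25 in lesional CTL and 4.19 and 4.04 in lesional butyrate skin. Baseline butyrate replicate 3 was outside both ranges at 2.53.

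Elovl6 to Elovl5 separated the treatments in lesional skin, with 8.19 and 7.53 counts of Elovl6 per count of Elovl5 with butyrate and 4.95 and 3.46 in CTL skin. Of the 4 baseline ratios 3 lay between these groups, at 5.64 and 6.42 for CTL and 7.36 for butyrate replicate 1, and that of butyrate replicate 3, at 4.02, lay within the range of lesional CTL skin. The log2 ratio of Acaca to Acacb ranged from -1.36 in baseline CTL replicate 1 to 0.88 in baseline butyrate replicate 3, with the baseline CTL mice at -1.36 and -0.26 and the 4 lesional mice between -0.63 and -0.07. The count ratio of Elovl7 to Elovl6 was between 0.0742 and 0.125 in the baseline mice other than butyrate replicate 3, which stood at 0.284. In lesional skin it was 0.195 and 0.162 with butyrate and 0.306 and 0.377 in CTL mice. No test was run on the ratios.

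**Figure D5:**
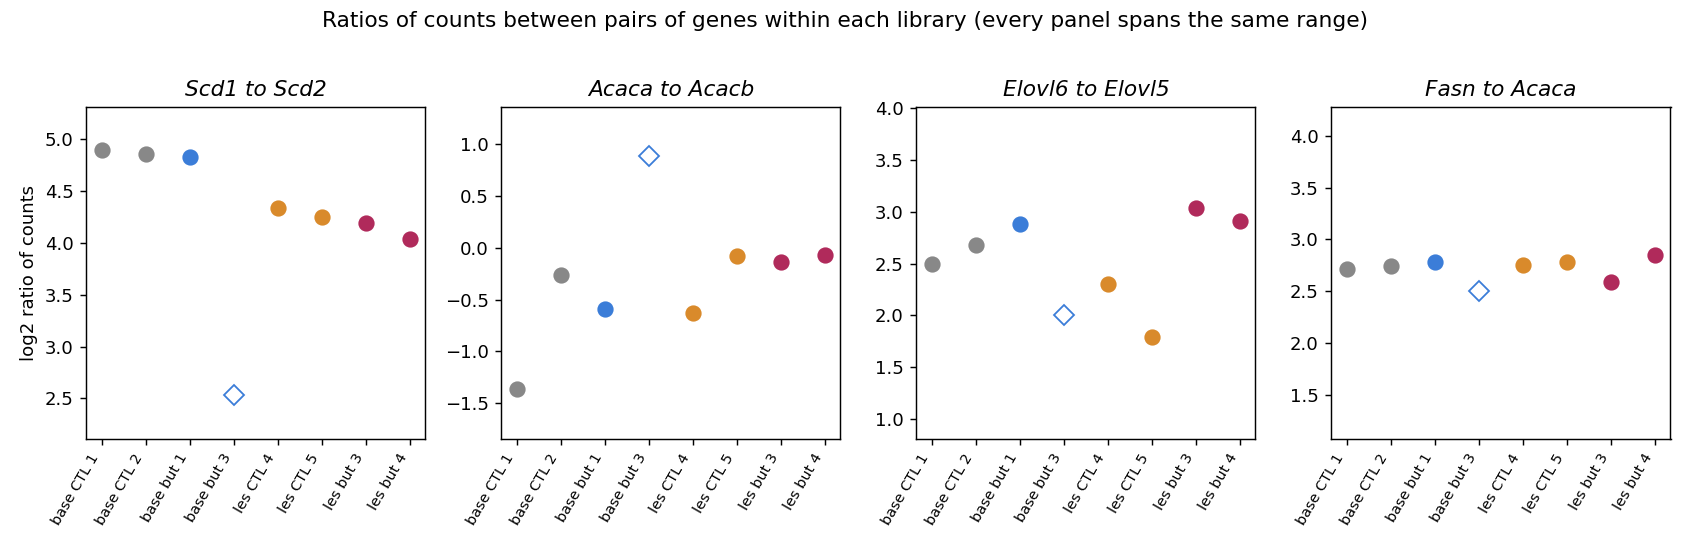
The y axis is the log2 ratio of the counts of 2 genes within 1 library, and every panel spans the same range so that distances can be compared. Fasn to Acaca stays between 2.51 and 2.86, whereas Scd1 to Scd2 runs from 4.83 to 4.89 in 3 baseline libraries and from 4.04 to 4.34 in lesional skin, with baseline butyrate replicate 3 (open diamond) at 2.53.

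Over the 8 libraries the log2 CPM of Acly, Acaca and Fasn moved together, with Pearson's r of 0.974 for Acaca and Fasn, 0.93 for Acly and Acaca and 0.925 for Acly and Fasn, and r of 0.985, 0.936 and 0.907 over the 7 libraries without baseline butyrate replicate 3. Fasn and Scd1 had an r of 0.845 over 8 libraries and 0.844 over 7. Acacb and Scd2 had an r of -0.827 over 8 libraries and -0.485 over 7, and baseline butyrate replicate 3 held the lowest Acacb and the highest Scd2. These values describe libraries that share groups, and are given without a test. The mean of the standardized log2 CPM of the 10 genes was highest in lesional butyrate replicates 4 and 3 (0.975 and 0.527), then in baseline CTL replicate 2 (0.415), and lowest in baseline butyrate replicate 3 (-0.972). Acly followed this mean most closely of the 10 genes, with an r of 0.951 over 8 libraries and 0.974 over 7, and Elovl7 had an r of 0.21 and 0.139. The place of others depended on baseline butyrate replicate 3, with an r of -0.119 over 8 libraries and 0.744 over 7 for Scd2, 0.591 and 0.167 for Acacb, and 0.518 and 0.133 for Elovl5.

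The 10 other genes most like this mean over the 8 libraries were Prrx2 (r = 0.946), Cilp2, Coa6, Trib2, Slc25a1, Ngb, Cacna1g, Etnppl, Uck1 and Dpf1 (r = 0.911). Slc25a1, the mitochondrial citrate carrier that feeds ATP citrate lyase, had an r of 0.931 and stood at 152 and 204 CPM in baseline CTL, 169 and 97.0 CPM in baseline butyrate, 130.2 and 138 CPM in lesional CTL, and 202 and 216 CPM in lesional butyrate skin. The likeness changed with single mice. Over the 7 libraries without baseline butyrate replicate 3, 0 of the 10 genes were among the 10 most alike, and their place was taken by Kcnk3 (r = 0.979), Taldo1 (0.977), Ly6g6d, Zbtb32, G6pdx (0.961), Slc25a10, Wasf1, Fam69b, Hpd and Snx3. Taldo1 and G6pdx encode enzymes of the pentose phosphate pathway, the source of much of the NADPH that synthesis consumes, and over 8 libraries their r was 0.154 and -0.26. Some of the genes named had few counts. Ngb and Etnppl reached at most 0.67 and 0.74 CPM in any library, and Hpd at most 1.12 CPM. Ly6g6d reached at most 0.60 CPM in the 7 libraries and stood at 111.8 CPM in baseline butyrate replicate 3.

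Other genes of the pathway were read from lists. Among the 8 genes that supply acetyl-CoA and NADPH, 8 had a positive log2 fold change of butyrate against CTL in lesional skin (median 0.38) and 0 passed. Those with the highest CPM were the transketolase gene Tkt and Me1, which encodes malic enzyme, a source of NADPH. Me1 stood at 172 and 194 CPM in lesional CTL and 274 and 257.5 CPM in lesional butyrate skin, without overlap. Tkt stood at 182 and 199 CPM against 238 and 291 CPM. In lesional against baseline skin of CTL mice 7 of the 8 had a negative log2 fold change (median -0.30) and 0 passed.

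The other enzymes of the elongation cycle were 10 genes, of which 9 were tested. Elovl4, which makes the very long chains of skin ceramides, had the highest CPM of them, at 1740 and 1551 CPM in lesional CTL and 2294 and 2047 CPM in lesional butyrate skin. Hsd17b12, the ketoacyl-CoA reductase of the cycle, followed at 330.5 and 292 CPM and at 389 and 328 CPM. With 8 libraries 0 of 9 passed in any of the 5 comparisons. In the fit of 7 libraries, Elovl3, which serves sebaceous glands and hair follicles and is also in the sebaceous gland list, was higher in lesional skin of CTL mice (log2 fold change 1.12, edgeR FDR = 0.0342) and of butyrate mice (1.57, edgeR FDR = 0.0704), and Hacd1 was lower in the latter (-1.64, edgeR FDR = 0.0725). Hacd1 is a dehydratase best known from muscle, and 8 of 8 skeletal muscle markers had a negative log2 fold change in that comparison. The part of muscle in the value of Hacd1 was not tested.

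Among 8 other desaturases 1 passed with 8 libraries. Degs2, which hydroxylates and desaturates the sphingoid base of ceramides, was higher in lesional than in baseline skin of CTL mice, at 14.6 and 12.7 CPM against 3.22 and 1.78 CPM (log2 fold change 2.44, SE 0.41, edgeR FDR = 0.0493). In butyrate mice it stood at 17.1 and 10.9 CPM against 1.52 and 2.38 CPM, and it passed there without baseline butyrate replicate 3 (3.20, edgeR FDR = 0.0367). Scd3, a sebaceous gland desaturase beside Scd1 and Scd2, stood at 518 and 249.5 CPM in baseline CTL, 221 and 42.2 CPM in baseline butyrate, 42.9 and 84.6 CPM in lesional CTL, and 158 and 115 CPM in lesional butyrate skin. It passed for lesional against baseline skin of CTL mice without baseline butyrate replicate 3 (log2 fold change -2.59, edgeR FDR = 0.0136). Degs1, which makes the double bond of ceramide, had the next highest CPM of the list, at 218 and 209 CPM in lesional CTL against 121 and 114 CPM in baseline CTL skin.

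Of 14 regulators of lipogenesis 0 passed in the 5 comparisons with 8 libraries, and butyrate against CTL in lesional skin had a positive sign in 10 of 14 (median 0.04). Rxra, the partner of the liver X receptors, stood at 285 and 282 CPM with butyrate and 229.9 and 222 CPM in lesional CTL skin. Thrsp, a lipogenic protein of fat, was, like Acaca and Fasn, over 2-fold apart in the 2 baseline CTL mice, at 119 and 318.5 CPM, where the adipocyte markers Plin1 (54.8 and 91.9 CPM) and Fabp4 (672 and 1023 CPM) also differed. Of the 14 adipocyte markers 13 were higher in replicate 2 of these mice and Car3 was lower, at 4479 and 3415 CPM. The list summed to 7699 and 7492 CPM, and the part of adipocytes in the values of Thrsp, Acaca and Fasn was not tested. In the fit of 7 libraries, Mlxipl, which encodes the carbohydrate-responsive factor ChREBP, was lower in lesional skin of CTL mice (log2 fold change -1.41, edgeR FDR = 0.00592) and of butyrate mice (-1.01, edgeR FDR = 0.0618).

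With 8 libraries 0 genes passed in the 5 comparisons among 5 acyl-CoA synthetases, 6 genes of triglyceride assembly, 5 tested genes of mitochondrial fatty acid synthesis and 6 genes that control the carboxylases and malonyl-CoA. For butyrate against CTL in lesional skin their median log2 fold changes were 0.30, 0.06, -0.03 and 0.08. Acsl5, an acyl-CoA synthetase, stood at 340.3 and 307 CPM in lesional CTL and 482 and 388 CPM in lesional butyrate skin, and Acsl1 at 237 and 249 CPM against 265 and 331 CPM. Dgat2, the acyltransferase that completes triglycerides, stood at 130.3 and 146 CPM against 201 and 198 CPM, and Plin2, a lipid droplet coat protein, at 251 and 247 CPM against 240.1 and 244 CPM. In mitochondrial synthesis Ndufab1, the acyl carrier protein, lay between 38.7 and 44.8 CPM in all 8 libraries and Mecr between 23.2 and 29.5 CPM. Ppp2ca, a phosphatase subunit, and Stk11, the kinase upstream of AMPK, had the highest CPM of the control genes, and log2 fold changes of 0.09 and 0.09 with butyrate in lesional skin. Prkaa2, a catalytic subunit of AMPK that is abundant in muscle, was lower in lesional than in baseline skin of CTL mice. Its log2 fold change was -1.01 without baseline butyrate replicate 3, and 8 of 8 skeletal muscle markers had a negative log2 fold change there. The part of muscle in the value of Prkaa2 was not tested.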

How the data were processed

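The authors aligned reads with STAR (2.5.2) to GRCm38 and counted them per gene with featureCounts, and they deposited raw counts of protein-coding genes without normalization. Groups came from the sample labels. The members and all lists were chosen with earlier results of these data known. Counts were fitted by edgeR's quasi-likelihood test (edgeR 4.0.16, R 4.3.3, robust, TMM, filterByExpr with a minimum count of 10), with 1 mean per group over 8 libraries and 4 residual degrees of freedom, and p-values were adjusted by Benjamini-Hochberg over all genes tested. Calls needed an FDR below 0.1 and a fold-change above 2. CPM and RPKM were computed from these counts with TMM-scaled totals (factors 0.944 to 1.04) and exon lengths of GENCODE vM21. limma-voom (limma 3.58.1), DESeq2 (1.42.0), other scalings, filters and thresholds, and leaving out each library were alternatives. The script was tested on simulated counts. The rule for names took all members, the called genes of each list (at most 3) or else its 2 most abundant, and the 10 genes most like the members. Other list genes, including those called only without baseline butyrate replicate 3, and the adipocyte genes Plin1 and Fabp4 were named after their values were seen. Hacd1 to Hacd4 were matched by identifier, and Hsd17b8 and Flg were not analysed here. Proteins were not analysed here.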

Additional observations from a re-analysis of the deposited data

Results flagged for a closer look

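Acacb was lower in both butyrate mice than in both CTL mice in baseline skin and higher in both in lesional skin. The difference between these butyrate effects was tested as an interaction and was 1.20 on the log2 scale (edgeR FDR = 0.84). It was 0.53 without baseline butyrate replicate 3 (edgeR FDR = 0.487). Elovl5 went in the same opposite directions, and its interaction was 0.46 (edgeR FDR = 0.84), or 0.38 without that mouse (edgeR FDR = 0.681).

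Elovl6 was lower in both lesional than in both baseline mice of the CTL group and higher in both of the butyrate group. Its interaction was 1.41 (edgeR FDR = 0.84).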

How the results depend on the processing

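Leaving out each library in turn and refitting moved the number of members called from 0 to between 0 and 1 (butyrate in lesional skin), 0 and 2 (butyrate in baseline skin), 0 and 1 (lesional against baseline skin, CTL), 0 and 2 (the same, butyrate) and 0 and 4 (interaction), and the counts above 0 came from leaving out baseline butyrate replicate 1 or 3, in which case the lone mouse was assumed to vary like the other groups. DESeq2 called 1 member (Elovl7) in lesional against baseline skin of CTL mice (7.21% of all genes) and 1 (Elovl7) in that of butyrate mice (4.6%). Fitting only the libraries compared called 1 (Elovl7) in CTL mice. The share of all genes called in that fit is not given here, so this count has no background beside it. Of 400 log2 fold changes of members without 1 library, 358 kept their direction and side of the threshold, 13 passed it and 29 turned direction.

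These are the lowest and highest log2 fold changes without 1 library for the results that turned. For butyrate in lesional skin they were -0.12 and 0.38 for Elovl7, -0.11 and 0.20 for Scd1, -0.011 and 0.45 for Scd2, and -0.021 and 0.36 for Srebf1. For butyrate in baseline skin they were -0.53 and 0.11 for Acly, -0.63 and 0.45 for Acaca, -0.70 and 0.40 for Fasn, -0.98 and 0.067 for Elovl6, -0.47 and 0.42 for Elovl7, -0.73 and 0.069 for Scd1, and -0.24 and 0.013 for Srebf1. For lesional against baseline skin of CTL mice they were -0.60 and 0.044 for Acly, -0.91 and 0.17 for Acaca, -0.88 and 0.23 for Fasn, -0.10 and 0.27 for Elovl5, -0.49 and 0.24 for Scd1, and -0.085 and 0.17 for Srebf1. In butyrate mice they were -0.32 and 1.66 for Acacb, -0.088 and 0.61 for Scd1, and -0.96 and 0.64 for Scd2. For the interaction they were -0.27 and 0.63 for Elovl7, -0.014 and 0.78 for Scd1, and -1.37 and 0.22 for Scd2. Of the 10 genes most like the members, 0 to 7 remained among the 10 most alike without 1 library. The cause was not tested.

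Under other scalings, filters, thresholds and tools 0 of the members' log2 fold changes turned direction. Scaling by library totals alone moved the median of all genes to 0.11 for lesional against baseline skin of CTL mice and to -0.12 for the interaction. No paired analysis was possible because the libraries of different groups came from different mice. The fit had 2 mice a group and 4 residual degrees of freedom, and the effect of depth on the precision was not tested.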
